A study of Mus musculus with 4 samples.

Results

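The genes described here are the semaphorins, their plexin receptors and the neuropilin co-receptors. They were taken from the array annotation by symbol: every gene named alone by a probe set whose symbol starts with Sema and a digit or with Plxn, or equals Nrp1 or Nrp2. That rule returned 32 of the 18193 genes named on the array, with 79 probe sets (sets of short probes that read the same transcript). One of the 32, Plxna4os1, is an antisense RNA rather than a plexin and is kept apart. This leaves 20 semaphorins, 9 plexins and 2 neuropilins with 78 probe sets. Each gene is represented by its probe set with the highest mean signal, and probe sets are given by the array's identifier where a gene has several.

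RNA came from neuroepithelial cells, the dividing precursors of the forebrain, taken from the telencephalon of ICR mouse embryos. In the E11.5 group, 2 arrays, the embryos were at embryonic day 11.5 and the cells had been cultured for 1 day. In the E14.5 group, 2 arrays, the embryos were at embryonic day 14.5 and the cells had been cultured for 4 days. Both groups grew in N2-supplemented DMEM/F12 medium with basic FGF at 10 ng/ml, which sustains precursor division, on dishes or chamber slides coated with poly-L-ornithine and fibronectin; the labels name no treatment, transgene or mutation in either. Embryonic age and days in culture change together, so they cannot be told apart. The labels do not say how many embryos gave the cells of an array or whether replicates were separate cultures, so the p-values rest on array-to-array spread alone, and that spread may be technical.

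Semaphorins are secreted or membrane-bound guidance proteins, best known for repelling growing axons and for steering migrating neurons. Those of class 3 are secreted and mostly bind a neuropilin, which holds the ligand while a plexin of type A carries the signal inward. Those of classes 4 to 7 are anchored in the membrane and bind plexins directly. Inside the cell, the plexin tail acts on small GTPases, and collapsin response proteins and actin regulators act further down. In the developing telencephalon these genes guide axons of cortical neurons, migrating interneurons and cells of the oligodendrocyte lineage.

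The arrays differed in brightness, and each was multiplied by 1 factor to a common trimmed mean; every level below is such a scaled signal, in arbitrary units. The 2% trimmed means of the deposited values lay between 103 and 252 and were lower on both E14.5 arrays. A probe set was tested if its mean scaled signal reached 27.3. Differences are E14.5 minus E11.5 on the scale of log2(scaled signal + 12.8), given with the SE from limma (n = 2 arrays per group), and a gene is called when its Benjamini-Hochberg adjusted p, over all 27022 probe sets tested, is below 0.05. The constant 12.8 shrinks differences of genes near or below it. Each SE comes mostly from the spread of other probe sets of similar signal. The limma fit weighs 2 residual degrees of freedom per probe set against a median of 7.99 borrowed ones.

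Of the 31 semaphorin, plexin and neuropilin genes, 28 passed the filter on low signal. Among these, 10 were lower at E14.5, 4 were higher and 14 did not pass the test. Over all 12952 genes tested, 13.6% were called lower and 14.3% higher, 27.8% together. A change of at least 2-fold was reached by 5 of the genes called lower and 1 of those called higher, beside 6.27% and 6.47% of all genes. The median difference of the 28 was -0.41, beside 0.03 for all genes. In 19 of the 28 the arrays of the groups did not overlap, 13 lower and 6 higher at E14.5; over all genes 65.6% did not overlap, 31.0% lower and 34.6% higher. Without scaling of the arrays, the median of all genes lay at -0.68 and 246 genes were called higher against 2241 lower, in place of 1850 against 1756; of the genes described here, 0 were then higher and 12 lower at the same threshold (adjusted p below 0.05). All directions below are therefore relative to each array's mean brightness.

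**Figure D1:**
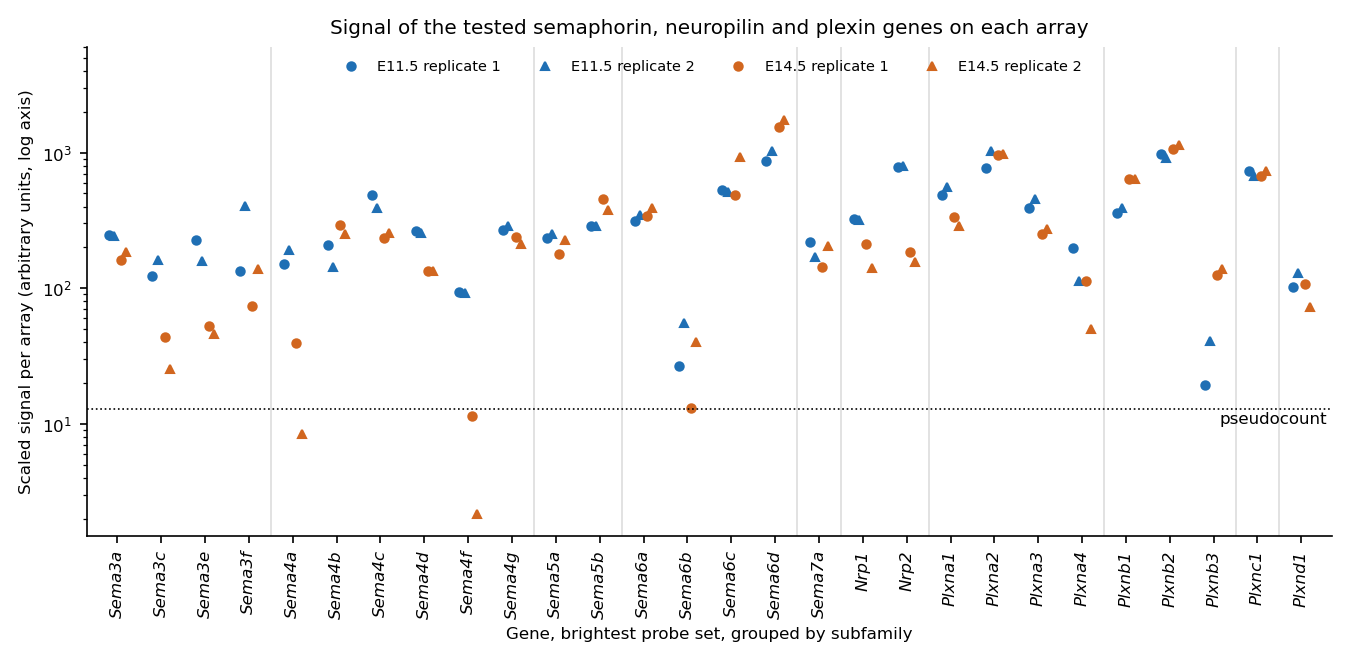
Scaled signal on each of the 4 arrays (y axis, arbitrary units, log scale) for the 28 tested genes (x axis, brightest probe set, grouped by subfamily), with circles and triangles for replicates 1 and 2 and a dotted line at the pseudocount of 12.8. Nrp2 and Sema3e show wide gaps between the blue E11.5 and orange E14.5 points, while for Plxnc1 the points of both groups lie together at 670 to 737.

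The promoter sequences of 4 of these genes are shown because they moved in opposite directions with every tested probe set called: Sema3c and Sema3e fell, Plxnb3 and Plxnb1 rose. They are the 2 largest differences in each direction among the called genes for which every tested probe set was called and RefSeq lists a single start. RefSeq's promoter table, build GRCm38.p6, held an entry for 26 of the 31 genes, 18 of them with 1 start. Each line gives the 250 bases before the start, 5′ to 3′ on the strand of the gene, with capitals marking matches on either strand to the motifs named after them. The arrays measured RNA only, and binding to these stretches was not measured.
Sema3c, chr5:17574566-17574815, plus strand: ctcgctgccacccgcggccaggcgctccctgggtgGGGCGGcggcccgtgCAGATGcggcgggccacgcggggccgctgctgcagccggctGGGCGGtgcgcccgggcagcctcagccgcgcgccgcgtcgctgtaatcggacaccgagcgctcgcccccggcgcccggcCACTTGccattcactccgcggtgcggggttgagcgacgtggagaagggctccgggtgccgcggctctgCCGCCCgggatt
Sema3e, chr5:14025026-14025275, plus strand: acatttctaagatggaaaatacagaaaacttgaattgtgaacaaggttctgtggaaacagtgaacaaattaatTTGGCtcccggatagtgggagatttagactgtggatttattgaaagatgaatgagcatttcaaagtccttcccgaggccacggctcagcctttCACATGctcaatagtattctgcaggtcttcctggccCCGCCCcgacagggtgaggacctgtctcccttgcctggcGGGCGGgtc
Plxnb3, chrX:73756853-73757102, plus strand: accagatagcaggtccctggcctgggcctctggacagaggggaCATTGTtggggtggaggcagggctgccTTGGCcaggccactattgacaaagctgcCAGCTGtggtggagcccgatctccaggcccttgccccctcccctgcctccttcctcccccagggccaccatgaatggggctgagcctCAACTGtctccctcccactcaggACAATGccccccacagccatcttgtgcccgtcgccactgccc
Plxnb1, chr9:109095186-109095435, plus strand: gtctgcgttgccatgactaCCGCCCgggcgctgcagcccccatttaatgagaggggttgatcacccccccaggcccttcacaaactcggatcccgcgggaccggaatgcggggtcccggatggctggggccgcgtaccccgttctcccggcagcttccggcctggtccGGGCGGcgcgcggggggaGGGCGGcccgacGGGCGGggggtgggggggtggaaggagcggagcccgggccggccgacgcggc

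The motifs searched were textbook ones, on both strands, and a match describes letters, not a site in use. The E-box CANNTG, which basic helix-loop-helix factors can bind, occurred 2 times before Sema3c, 1 time before Sema3e, 2 times before Plxnb3 and 0 times before Plxnb1. It occurs in 66.2% of all 32851 promoters of the table at the same length. The E-box form CAGCTG, which overlaps it by definition, was found before Plxnb3 alone among the 4, as 1 of its 2 E-boxes, and is found in 13.0% of promoters. The GC box GGGCGG, known as a site of Sp factors, occurred 3 times before Sema3c, 2 times before Sema3e, 4 times before Plxnb1 and 0 times before Plxnb3; 32.7% of promoters hold it. The half-site of nuclear factor I, TTGGC, occurred 1 time each before Sema3e and Plxnb3 and is held by 41.5%. The Sox-type motif ACAATG occurred 2 times before Plxnb3, in none of the other 3 windows, and is held by 10.7%. The TATA box, searched as TATAAA, was in none of the 4 windows and is in 12.4% of promoters. The G and C content of the windows was 78.4% for Sema3c, 48.0% for Sema3e, 65.2% for Plxnb3 and 75.2% for Plxnb1.

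Among the secreted class 3 ligands, Sema3c and Sema3e were lower at E14.5, and none of the class was called higher. Of 7 genes on the array 4 were tested, and the 2 others, Sema3a and Sema3f, did not pass at their brightest probe set. Sema3e, which binds Plxnd1 directly without a neuropilin, had signals of 226 and 158 at E11.5, against 52.5 and 46.3 at E14.5. Both E11.5 values lay above both E14.5 values, and the means differed 3.88-fold (log2 difference -1.70 ± 0.24, adjusted p = 0.00071). Its other tested probe sets gave larger falls: 1419717_at went from 244 and 187 to 6.64 and 14.3 (-3.30 ± 0.29), and 1427673_a_at from 120 and 133 to 6.35 and 5.29 (-2.90 ± 0.31). On these the E14.5 means, 10.5 and 5.82, lay below the pseudocount, so their sizes depend on it. Its call held under every alternative run, with differences from -3.80 to -1.34.

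Sema3c, a ligand of Nrp1 and Nrp2, had signals of 122 and 161 at E11.5 and 43.7 and 25.2 at E14.5. The groups were separated by more than either pair of replicates (-1.72 ± 0.28, adjusted p = 0.0017), and the call held under every alternative run. Only 1 of its probe sets was tested, so averaging probe sets could not alter this difference. Its dimmer probe set, below the filter, had group means of 40.0 and 12.1. Sema3a, the classical repellent of axons that acts through Nrp1 and type A plexins, had 247 and 243 at E11.5 and 162 and 185 at E14.5. Its groups did not overlap, yet the brightest probe set missed the threshold (-0.47 ± 0.17, adjusted p = 0.078). The next, 1449865_at, passed, from 103 and 196 to 70.7 and 60.8 (-0.99 ± 0.29, adjusted p = 0.032), as did the average of both (-0.73).

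Sema3f, a ligand of Nrp2, differed so widely between replicates that its brightest probe set was not called. The signals were 133 and 403 at E11.5 and 74.4 and 139 at E14.5, with 1 E11.5 array inside the E14.5 range (-1.10 ± 0.42, adjusted p = 0.090). Leaving out E11.5 replicate 1 gave -1.85 and leaving out E14.5 replicate 2 gave -1.50, both called lower, whereas leaving out E11.5 replicate 2 gave -0.35 and E14.5 replicate 1 gave -0.70, neither called. This probe set ends in _x_at, the array maker's mark for probes that may also detect other transcripts; the next one, 1425840_a_at, just passed, from 61.1 and 60.3 to 14.4 and 31.9 (-1.07 ± 0.35, adjusted p = 0.049). Sema3b, Sema3d and Sema3g were not tested, as their mean signals were below the filter. Sema3b ranged from 3.68 to 6.85 and Sema3g from 1.12 to 8.61 over the 4 arrays, below the pseudocount throughout. Sema3d had 12.8 and 14.04 at E11.5 and 41.8 and 16.4 at E14.5.

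The neuropilins, through which most class 3 ligands act, were both lower at E14.5. Nrp2, co-receptor for Sema3f and Sema3c and a known guide of interneurons, had 779 and 798 at E11.5 and 185 and 156 at E14.5. The replicates lay close together and the groups far apart, with means differing 4.62-fold (-2.13 ± 0.16, adjusted p = 1.3e-05). Its other probe sets fell less: 1456778_at had a difference of -1.01 ± 0.22 (adjusted p = 0.0083), while 1426528_at had group means of 210 and 188 and did not pass (-0.18 ± 0.22, adjusted p = 0.62). Thus the size of the Nrp2 difference depends on the probe set, and which transcript forms each detects was not determined here. Nrp1, co-receptor for Sema3a and also for the vascular growth factor Vegfa, had 323 and 316 at E11.5 and 212 and 141 at E14.5. The groups did not overlap (-0.84 ± 0.20, adjusted p = 0.014), and 1418084_at gave nearly the same value (-0.85 ± 0.20), while 1448944_at did not pass (-0.37 ± 0.29). Without E14.5 replicate 2, the dimmer of the E14.5 pair, the Nrp1 difference was -0.56 and lost its call, as it did without the trend of variance on signal (adjusted p = 0.070, limma).

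The type A plexins, the signalling partners of the neuropilins, were lower for 2 of 4 genes, with none called higher. Plxna1 had 489 and 556 at E11.5 and 335 and 290 at E14.5 (-0.72 ± 0.16, adjusted p = 0.0080). Its groups did not overlap, but its dimmer probe set did not pass (-0.24 ± 0.33), nor did the average of both (-0.48), and without the variance trend its adjusted p was 0.055. Plxna3, a receptor for Sema3f with Nrp2, had 391 and 454 at E11.5 and 250 and 272 at E14.5 (-0.66 ± 0.16, adjusted p = 0.013). Its other probe set was also lower (-0.91 ± 0.22), although the call was lost without E11.5 replicate 2 (-0.56) and without the variance trend (adjusted p = 0.064). Plxna2, a receptor of Sema6a, had 4 tested probe sets and none passed, with differences from -0.48 to 0.11. At the brightest the groups overlapped, with 765 and 1028 at E11.5 against 956 and 968 at E14.5, and the sign turned without E11.5 replicate 1 (-0.10).

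Plxna4, a receptor for Sema3a and for class 6 ligands, did not pass the test. Signals were 198 and 113 at E11.5 and 114 and 50.2 at E14.5, the groups overlapping slightly (-0.86 ± 0.35, adjusted p = 0.10). Leaving out E11.5 replicate 2 (-1.24) or E14.5 replicate 1 (-1.37) gave a call as lower, but E11.5 replicate 1 (-0.49) or E14.5 replicate 2 (-0.36) did not. Its dimmer probe set pointed upward and did not pass (0.39 ± 0.30). The antisense transcript Plxna4os1 was listed at 0.812 and 1.57 at E11.5 and 8.80 and 7.38 at E14.5, all below the pseudocount, and was not tested.

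**Figure D2:**
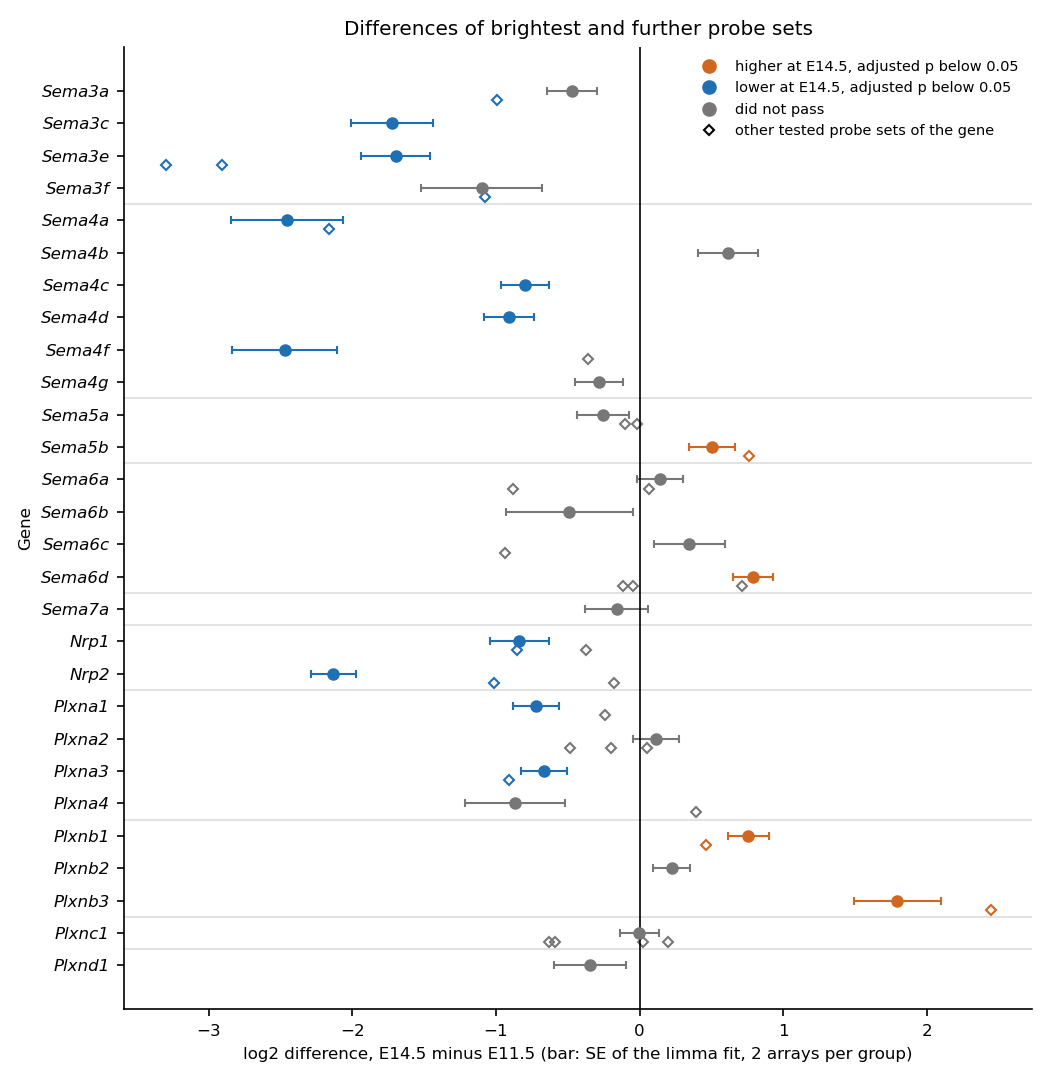
log2 difference, E14.5 minus E11.5 (x axis), of the brightest probe set of each of the 28 tested genes (filled circles, bar: SE, 2 arrays per group) and of their other tested probe sets (open diamonds), coloured by call. Blue points for Sema3e, Sema4a, Sema4f and Nrp2 reach -2.13 or lower, and Plxnb3 gives the rightmost orange points at 1.80 and 2.44.

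Class 4 semaphorins, transmembrane ligands mainly of type B plexins, were lower for 4 of 6 genes, with none called higher. Sema4d, the ligand of Plxnb1, had 266 and 257 at E11.5 and 134 and 133 at E14.5. Replicates differed far less than the groups, whose means lay 1.96-fold apart (-0.91 ± 0.17, adjusted p = 0.0041), and the call held under every alternative run. Sema4c, a ligand of Plxnb2, had 483 and 389 at E11.5 and 234 and 256 at E14.5 (-0.80 ± 0.17, adjusted p = 0.0068), a call that likewise held throughout. For Sema4d and Sema4c only 1 probe set was tested, so averaging probe sets could not alter their differences. Sema4a, known from retina and immune cells, fell from 150 and 192 to 39.3 and 8.47 (-2.46 ± 0.39, adjusted p = 0.0014). The E14.5 replicates of Sema4a lay 1.29 log2 units apart, yet both were below either E11.5 array, and a second probe set agreed in direction and call (-2.16 ± 0.30). Leaving out single arrays moved the Sema4a difference between -3.10 and -1.81. The E14.5 value of 8.47 lay below the pseudocount, so the size depends on it. The difference was -3.08 with the smaller pseudocount and -1.73 with the larger.

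Sema4f had the lowest difference of the tested genes at the brightest probe set, but only there. On 1439768_x_at, a probe set marked as open to other transcripts, signals were 93.1 and 92.4 at E11.5 and 11.5 and 2.16 at E14.5 (-2.47 ± 0.36, adjusted p = 0.00089). The E14.5 mean of 6.83 was below the pseudocount, so the size depends on it. On 1419328_at, without that mark, signals were 32.6 and 60.8 at E11.5 and 17.0 and 55.7 at E14.5, and the groups overlapped (-0.36 ± 0.44, adjusted p = 0.62). Sema4b had 207 and 143 at E11.5 and 293 and 251 at E14.5; its groups did not overlap but it just missed the threshold (0.62 ± 0.21, adjusted p = 0.055). The difference of Sema4b was 0.86 without E11.5 replicate 1 and 0.37 without E11.5 replicate 2. Sema4b passed as higher with the stricter filter, quantile normalization (0.68), scaling to a common median (0.68) and probe sets averaged. Only 1 of its probe sets was tested, so averaging left its difference at 0.62 and is no further support. Without scaling the difference was -0.11. Sema4g had 270 and 286 against 240 and 213 and did not pass (-0.28 ± 0.17, adjusted p = 0.27).

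Among the type B plexins, Plxnb1 and Plxnb3 rose and Plxnb2 did not pass. Plxnb1, the receptor of Sema4d, had 356 and 387 at E11.5 and 635 and 635 at E14.5. Its groups lay well apart (0.76 ± 0.14, adjusted p = 0.0036) and its second probe set also passed (0.46 ± 0.14, adjusted p = 0.042); without scaling the difference was -0.00, which is 0.68 above the median of all genes. Plxnb3, for which Sema5a is a known ligand, had 19.5 and 41.0 at E11.5 and 125 and 139 at E14.5, on a probe set ending in _s_at, which may detect other transcripts too. The means differed 4.36-fold (1.80 ± 0.30, adjusted p = 0.0019), and without scaling the difference was 1.14 and missed the threshold. On its second probe set, 1418750_at, both E11.5 arrays were below the pseudocount at 4.21 and 1.63, against 68.9 and 76.3 at E14.5 (2.44 ± 0.37, adjusted p = 0.0011). Plxnb2, which works in dividing neural precursors as a receptor of Sema4c, had 969 and 910 against 1059 and 1138 (0.22 ± 0.13, adjusted p = 0.25). Thus the ligand Sema4d was lower and its receptor Plxnb1 higher on the same arrays.

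In class 5, whose members carry thrombospondin repeats, Sema5b was called higher and Sema5a was not called. Sema5b, which can inhibit growing axons, had 289 and 288 at E11.5 and 456 and 377 at E14.5 (0.50 ± 0.16, adjusted p = 0.047). Its second probe set went from 220 and 169 to 370 and 305 (0.76 ± 0.19, adjusted p = 0.015). At the brightest probe set the call was lost on leaving out E11.5 replicate 1 (0.50), E11.5 replicate 2 (0.50) or E14.5 replicate 1 (0.37). It was also lost with the smaller pseudocount (adjusted p = 0.0504), with no filter (0.074) and with no variance trend (0.127), and without scaling the difference was -0.25, or 0.44 above the median of all genes. Sema5a had 233 and 253 against 179 and 227 (-0.25 ± 0.18, adjusted p = 0.37), and its other tested probe sets lay nearer 0, at -0.10 and -0.02.

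Class 6 semaphorins are transmembrane ligands of type A plexins, and 1 of the 4, Sema6d, was called higher. Sema6d, a ligand of Plxna1, had 870 and 1023 at E11.5 and 1545 and 1744 at E14.5. The groups did not overlap (0.79 ± 0.14, adjusted p = 0.0024). This rests on that probe set: of 3 dimmer ones none passed, with differences of 0.71 ± 0.37, -0.04 ± 0.31 and -0.11 ± 0.34, and the average of all gave 0.34 without a call. Sema6d without scaling differed by 0.02, which is 0.70 above the median of all genes. Sema6a, a ligand of Plxna2 and Plxna4, overlapped between groups at 311 and 349 against 343 and 388 (0.14 ± 0.16). Its probe sets pointed both ways, and the lowest, at -0.88 ± 0.32, had an adjusted p of 0.073.

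Sema6c turned on a single array. Signals were 531 and 515 at E11.5 and 484 and 922 at E14.5, so that 1 E14.5 array lay below both E11.5 arrays and the other far above (0.35 ± 0.24, adjusted p = 0.36). It passed as higher without E14.5 replicate 1 (0.80), turned to -0.11 without E14.5 replicate 2, and on its dimmer tested probe set the difference was -0.93 ± 0.39. Sema6b was dim, with 26.6 and 55.4 against 13.1 and 39.8, and did not pass (-0.49 ± 0.44). For both genes the E14.5 replicates lay further apart than the group means.

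The remaining ligand and receptors showed no call. Sema7a, held in the membrane by a lipid anchor and known to bind Plxnc1 and beta-1 integrin, had 219 and 170 at E11.5 and 144 and 204 at E14.5 (-0.16 ± 0.22). Plxnc1 had 733 and 673 against 670 and 737, and its groups covered the same range (-0.00 ± 0.14, adjusted p = 1.0). None of its 5 tested probe sets passed, although the dimmer ones reached -0.63 ± 0.26. Plxnd1, the receptor of Sema3e, had 103 and 130 against 108 and 72.2 (-0.34 ± 0.25, adjusted p = 0.37). Its groups overlapped, whereas those of its ligand Sema3e did not; whether the difference of the ligand exceeds that of the receptor was not tested.

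**Figure D3:**
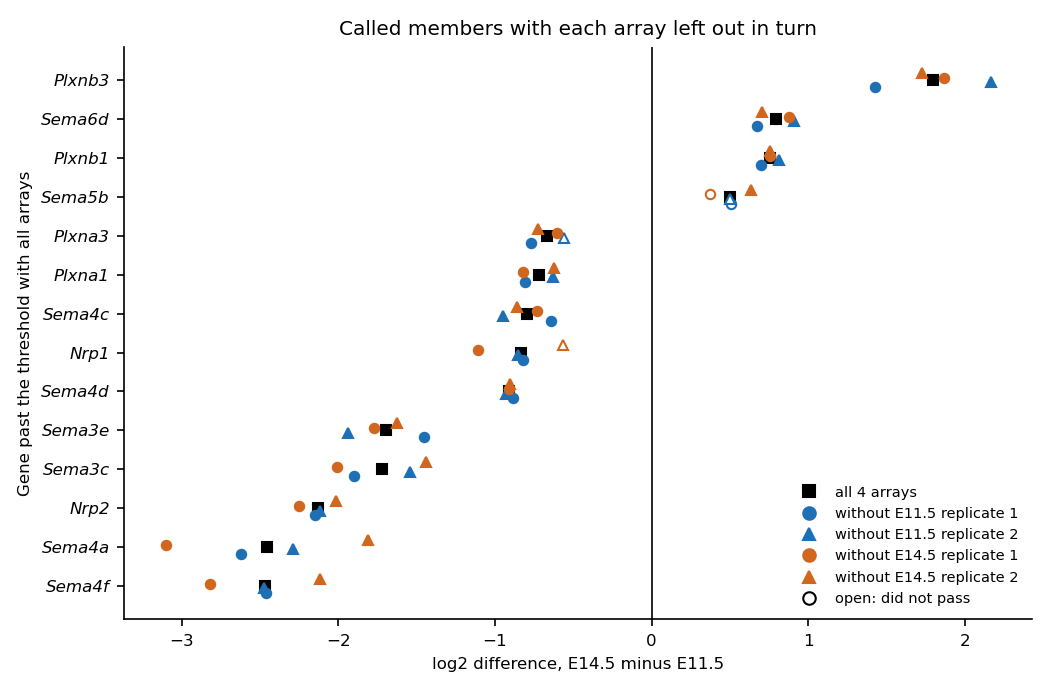
log2 difference, E14.5 minus E11.5 (x axis), of the 14 called genes with all 4 arrays (black squares) and with each array left out in turn (coloured symbols, open where the gene did not pass). Open symbols appear for Sema5b, Plxna3 and Nrp1, and no symbol crosses 0.

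Agreement between probe sets of 1 gene varied. Of 59 tested probe sets, 18 were called lower and 7 higher, beside 12.6% and 11.1% of all probe sets. More than 1 probe set was tested for 19 genes. In 6 of these every tested probe set was called the same way: Sema3e, Sema4a and Plxna3 lower, Plxnb1, Plxnb3 and Sema5b higher. In 7 a called probe set stood beside one that did not pass, namely Nrp1, Nrp2, Plxna1, Sema3a, Sema3f, Sema4f and Sema6d. In 0 of the 31 genes were probe sets called in opposite directions. The filter used the mean of all 4 arrays, so a probe set bright in 1 group alone was tested. Means at E11.5 and E14.5 were 2.92 and 72.6 for Plxnb3 1418750_at, and 127 and 5.82 for Sema3e 1427673_a_at. Agreement among such probe sets is partly fixed by the filter and is no independent support. Replicates of the tested genes differed by a median of 0.19 log2 units in the E11.5 group and 0.20 in the E14.5 group. Over all tested probe sets these medians were 0.20 and 0.22. In 16 of 28 genes the gap between groups exceeded both replicate differences. The same count was not made over all genes, so it cannot be called a trait of these genes, and whether it is one was not tested.

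Co-receptors and effectors of semaphorin signalling, from a list of 69 genes drawn from textbook knowledge, moved in both directions. Of 67 on the array 57 were tested, of which 12 were lower, 10 higher and 35 did not pass, with a median difference of 0.01, beside 13.6% lower and 14.3% higher over all genes. L1cam, a neuronal adhesion protein that joins Nrp1 in the response to Sema3a, fell most, from 772 and 900 to 132 and 132 (-2.55 ± 0.16). The collapsin response protein Dpysl5 (-1.97 ± 0.19), the small GTP-binding protein Rnd3 (-1.70 ± 0.21), the proteoglycan Gpc3 (-1.51 ± 0.24), the Rac effector kinase Pak3 (-1.48 ± 0.18) and the small GTPase Rras2 (-1.20 ± 0.24) were lower too. Among the genes that were higher, Fyn, a kinase that phosphorylates effectors of plexin signalling, went from 953 and 961 to 1949 and 2611 (1.23 ± 0.15). Rras, a GTPase that plexins switch off, rose by 1.15 ± 0.23, the plexin-binding scaffold Ranbp9 by 1.15 ± 0.20 on an _x_at probe set, the GTPase-activating protein Arhgap35 by 0.74 ± 0.13 and the exchange factor Farp1 by 0.66 ± 0.16. Tyrobp, an adaptor that Plxna1 can use and at the same time a microglial marker, rose by 3.10 ± 0.22. The collapsin response proteins Dpysl2 (-0.02 ± 0.12) and Dpysl3 (0.15 ± 0.13), the kinase Gsk3b (-0.19 ± 0.13) and the GTPase Rap1b (-0.07 ± 0.12) did not pass. The count of higher genes fell to 6 without E14.5 replicate 2, to 5 without the trend of variance on signal and to 1 without scaling.

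**Figure D4:**
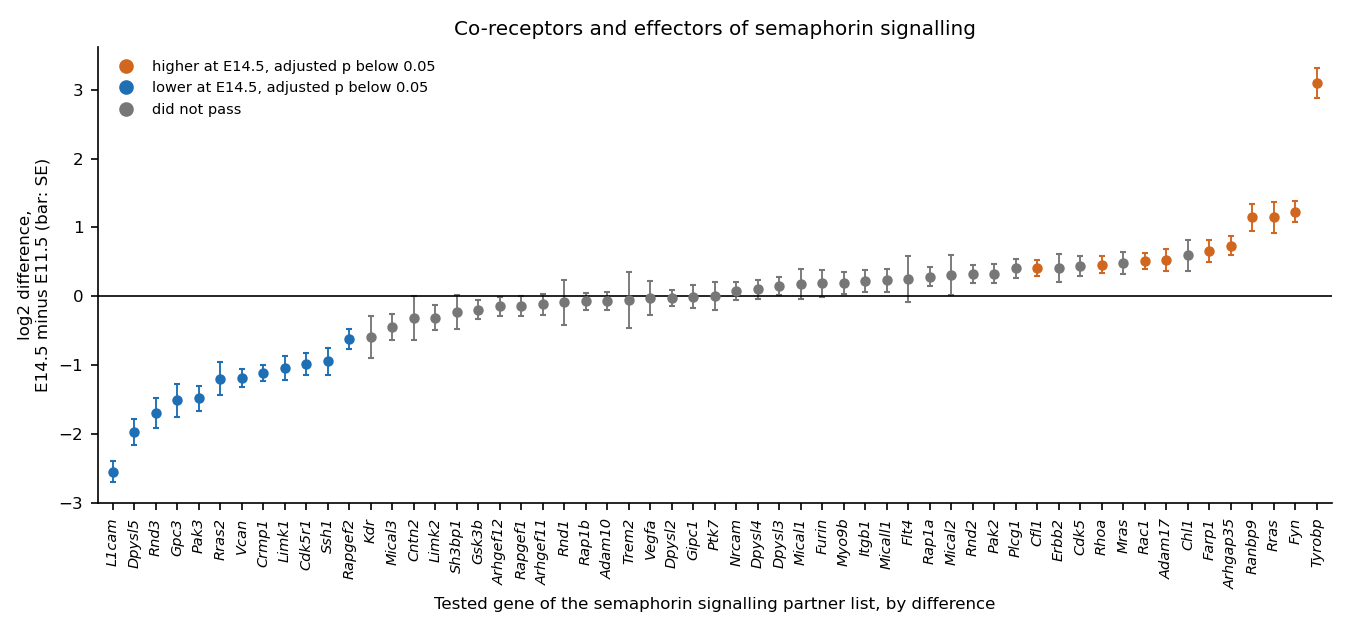
log2 difference, E14.5 minus E11.5 (y axis, bar: SE, 2 arrays per group), of the 57 tested partner genes, ordered by difference along the x axis and coloured by call. The 12 blue points run from L1cam at -2.55 to Rapgef2 at -0.62, and Tyrobp at 3.10 stands above the other 9 orange points.

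Markers of several cell types moved on the same arrays, and their part in the differences above was not tested. In RNA from mixed cells, fewer cells of a type and less RNA per cell cannot be told apart. Of 12 neuronal markers 11 were lower at E14.5 and 0 higher, and their summed signal was 16379 to 17353 at E11.5 and 5252 to 5441 at E14.5; Map2, the member that did not pass, stood beside Stmn2 (-4.10 ± 0.28) and Gap43 (-2.03 ± 0.15). The 10 semaphorin, plexin and neuropilin genes called lower share the direction of the neuronal list, as every gene called lower does. With only 2 groups of arrays, a shared direction is fixed by the calls and ties no gene to a cell type. The meningeal and erythroid sums given below were lower too. All 8 markers of oligodendrocyte precursors were higher, from sums of 686 to 906 to sums of 19002 to 20948, led in signal by Olig1 (4.32 ± 0.15), Olig2 and Pdgfra. All 7 tested astrocyte markers of 8 were higher, from 2885 to 3613 up to 11243 to 15482. Both lists share the direction of Plxnb1, Plxnb3, Sema5b and Sema6d, as every gene called higher does. The sums of progenitor and microglial markers given below were higher too. The brightest astrocyte markers were Aldoc (1.01 ± 0.15), Apoe (4.37 ± 0.23) and Aldh1l1 (3.32 ± 0.18).

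Markers of the labelled cell type were detected, which does not by itself identify the cells. All 12 neuronal and all 8 oligodendrocyte precursor markers passed the same filter. The filter takes the mean over both groups, so passing it does not show detection in each group. At E11.5, Gpr17 (2.77 and 1.29), Omg (3.91 and 4.55) and Cspg4 (9.67 and 4.16) lay below the pseudocount. The other oligodendrocyte precursor markers lay above it on both E11.5 arrays. All 10 markers of neural progenitors and radial glia passed the filter on mean signal, 5 of them higher and 1 lower at E14.5. The lower one was Pax6 (-0.83 ± 0.17), and 4 did not pass the test, so the list did not move as a whole. Its sums were 20460 to 22025 at E11.5 and 32703 to 34789 at E14.5. Fabp7, Vim and Sox2 were the brightest and weigh most in these sums. Some genes that mark non-neural cell types also had mean signals above the filter. By itself this does not show that such cells were present. Of 10 microglial and macrophage markers, with Tyrobp, Ctss and Csf1r the brightest, 8 were higher and 0 lower (sums of 245 to 341 at E11.5 and 1827 to 1956 at E14.5). Of 10 endothelial and pericyte markers 7 were below the filter, among them Pecam1 and Cdh5, and the sums were 221 to 277 at E11.5 and 249 to 263 at E14.5. Of the 3 tested, Plvap was higher, from a mean of 10.0 to one of 91.2 (2.23 ± 0.36), while Kdr (-0.59 ± 0.30) and Rgs5 (-0.02 ± 0.34) did not pass. Meningeal and mesenchymal markers were lower for 3 of 8 (1232 to 1233 against 602 to 687), and 2 of the 5 erythroid genes on the array were lower (412 to 850 against 95.4 to 124).

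**Figure D5:**
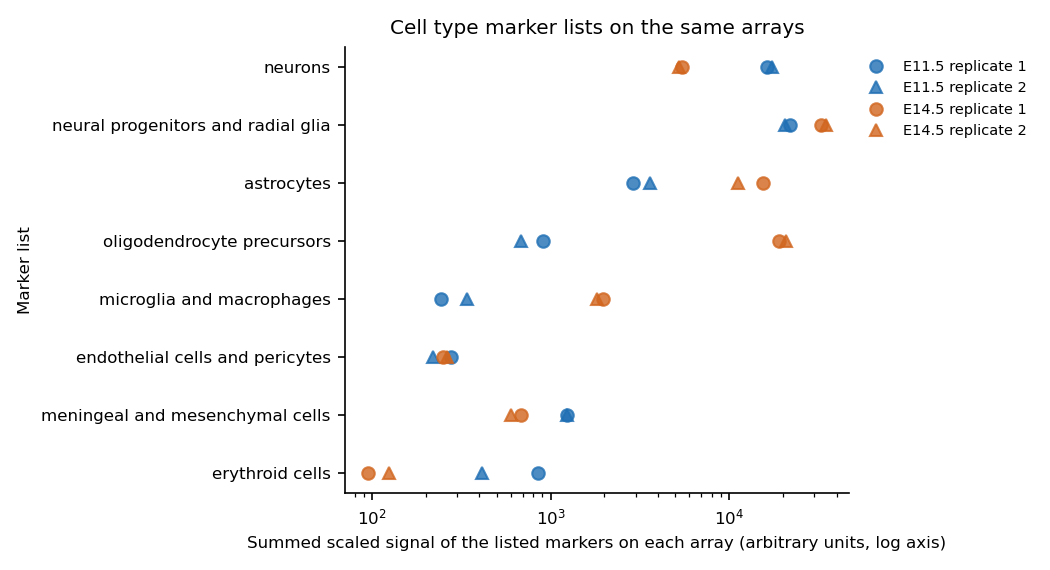
Summed scaled signal of each marker list (x axis, arbitrary units, log scale) on the 4 arrays, with blue for E11.5, orange for E14.5, and circles and triangles for replicates 1 and 2. The neuronal sums lie between 16379 and 17353 at E11.5 and at 5252 to 5441 at E14.5, and the oligodendrocyte precursor sums shift the other way.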

How the data were processed

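The authors deposited a linear intensity for every probe set on each array. The submitters' processing notes name GCOS, Affymetrix's array software; its version and settings: not given in the sources used here. Per the labels' protocols, 5 µg of total RNA was copied into biotin-labelled cRNA. The table held 45101 probe sets; 64 controls were left out. The annotation named 1 gene for 34945, several for 932 and none for 9160.

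Each array was multiplied to bring its 2% trimmed mean to 174. The filter kept means from the 40th percentile (27.3) upward. Testing used limma 3.58.1 under R 4.3.3 (lmFit, eBayes with a variance trend) on log2(scaled intensity + 12.8), the 25th percentile of all values, and the fit was tested on simulated data. Depth has no counterpart here; the number of arrays limits precision. The array files name no genome build, so no probe set positions are given; promoter coordinates are those of RefSeq's own table.

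The genes, lists and tests were chosen with earlier results of these data known. Every gene of the rule is accounted for. Of the partner list, up to 6 called genes in each direction by size of difference and up to 4 uncalled genes by signal were named; of each marker list, up to 3 by signal. Genes outside this (Pecam1, Cdh5, Pax6 and Rapgef2) were named after their values were seen. Replicate numbers did not pair the arrays by the labels.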

Additional observations from a re-analysis of the deposited data

How the results depend on the processing

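Alternatives were other pseudocounts (1.60 and 42.0), no filter or a stricter one, quantile normalization, no scaling, scaling to a common median, no variance trend, averaged or second brightest probe sets, a replicate block and leaving out each array; leaving out _x_at and _s_at probe sets was chosen after seeing the data. With 1 array left in a group, that array is assumed to vary like the others. Of 14 called genes, 5 kept direction and call under all alternatives run (Sema3c, Sema3e, Sema4a, Sema4c and Sema4d); of 14 uncalled genes, 3 stayed uncalled with the same sign (Plxnd1, Sema4g and Sema5a). Sema3c, Sema4c, Sema4d, Plxnd1 and Sema4g had 1 tested probe set each. For these, averaging could not alter the difference and no second brightest probe set was tested. The brightest probe set can itself change with the setting, as it did for Sema3e without scaling. The cause of the changes that follow was not tested, except that without scaling the E14.5 arrays are dimmer throughout.

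Without scaling, 0 semaphorin, plexin and neuropilin genes and 1 partner gene were called higher, and 246 of all genes. Without the variance trend, 3 of the genes described here were called higher and 7 lower, with Nrp1, Plxna1, Plxna3 and Sema5b losing their calls; 5 partner genes were higher, and of all genes 1150 were higher and 1101 lower. With single arrays left out, the genes described here called higher numbered 3 to 4 and those lower 10 to 11; partner genes 6 to 10 and 11 to 12; all genes 1406 to 1903 and 1423 to 1708.

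Signs turned without scaling for Plxna2 (-0.65), Plxnb1 (-0.0042), Plxnb2 (-0.55), Sema4b (-0.11), Sema5b (-0.25), Sema6a (-0.61) and Sema6c (-0.42). They turned with probe sets averaged for Plxna2 (-0.13), Sema6a (-0.23) and Sema6c (-0.29), and with the second brightest probe set for Plxna2 (-0.20), Plxna4 (0.39), Plxnc1 (0.027), Sema6a (-0.88), Sema6c (-0.93) and Sema6d (-0.11). Plxnc1 turned with quantile normalization (0.011) and median scaling (0.068). With single arrays left out, differences that changed sign ranged from -0.095 to 0.32 for Plxna2, -0.068 to 0.068 for Plxnc1, -1.001 to 0.022 for Sema6b, -0.11 to 0.80 for Sema6c and -0.39 to 0.075 for Sema7a.

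Replicate numbers are shared between the groups, and deviations of same-numbered arrays correlated at 0.0041. The labels do not say whether same-numbered arrays were prepared together. With 2 arrays per group this correlation cannot decide it. The fit with the replicate block called 5 genes higher and 12 lower, adding Sema3f, Plxna4 and Sema4b, with 13 and 12 partner genes and 2016 and 1933 of all genes.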
